A study of Mus musculus with 9 samples.

Results

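The genes of the major histocompatibility complex (MHC) and of antigen presentation were examined in mouse liver RNA-seq, as 41 of the 16755 genes in a deposited table of group means. They were chosen by name: 26 genes whose symbol begins with H2 and a letter, and 15 listed genes, which were Cd74, Ciita, Nlrc5, B2m, Tap1, Tap2, Tapbp, Tapbpl, Erap1, Psmb8, Psmb9, Psmb10, Cd80, Cd86 and Cd1d1. The rule is a list of names and has no threshold on a measured value. The study compared tumor-adjacent liver (TAL) of Scd2f/f;Col1a1-Cre mice (Scd2f/f;CC, whose samples are called CC TAL) with TAL of Scd2f/f mice, and had untreated Scd2f/f liver as its control, with 3 mice in each of the 3 groups and 9 samples in all. All mice were male, on a C57BL/6 background, and carried a loxP-flanked Scd2 gene, which encodes a stearoyl-CoA desaturase. Both TAL groups had received the liver carcinogen diethylnitrosamine (DEN, 10 mg/kg at 2 weeks of age) and, from 6 weeks of age, a liquid Western alcohol diet (WAD) with lard, cholesterol and ethanol, for 4 months by the labels and for longer by the study's methods, and control liver had received neither. In Scd2f/f;CC mice, Cre under the Col1a1 promoter removed a part of Scd2 in hepatic stellate cells (HSC) and portal fibroblasts, and cells that do not use this promoter kept the gene. The labels call the samples liver tissue, and the study describes TAL as free of visible tumors while holding microscopic ones. Each sample was whole tissue, in which fewer cells of a type and less RNA per cell cannot be told apart.

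Only 1 mean per group was at hand for each gene. It is the authors' least-squares mean of normalized counts over 3 mice, with no spread and no depth per sample, so no difference below was tested against the variation between mice. A gene was counted as higher or lower where the ratio of 2 of the authors' means was at least 1.5-fold and its mean over the 3 groups was at least 1. Both comparisons use the Scd2f/f TAL mean, so a high or low value there moves them in opposite directions, and they are given side by side.

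MHC class I molecules carry peptides made from proteins inside a cell to CD8 T cells. Their heavy chain pairs with beta-2 microglobulin (B2m), and the peptides are cut by the proteasome, pumped into the endoplasmic reticulum by Tap1 and Tap2 and trimmed there by Erap1. MHC class II molecules carry peptides from engulfed material to CD4 T cells. They are made by dendritic cells, macrophages and B cells, travel with the invariant chain Cd74 and receive their peptide with the help of H2-DM. In the liver, Kupffer cells, dendritic cells and sinusoidal endothelium present antigen, while nearly every cell, hepatocytes included, carries class I. The promoters of both classes share a module of X and Y boxes, on which the transactivators Ciita, for class II, and Nlrc5, for class I, assemble. Class I promoters also hold an upstream enhancer A, bound by NF-kB, and an element for interferon regulatory factors (IRF).

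Promoter letters are shown for 6 members because they differ in this module and in their means. Each stretch is RefSeq sequence of GRCm38.p6 that lies before the transcription start, read 5′ to 3′ on the gene's strand, and capitals mark a match to a searched motif on either strand. H2-Eb1 and H2-Aa encode class II chains, H2-K1 is a classical class I heavy chain, B2m is its light chain, and H2-Q4 and H2-Q10 are non-classical class I heavy chains.
H2-Eb1, chr17:34305667-34305866, plus strand: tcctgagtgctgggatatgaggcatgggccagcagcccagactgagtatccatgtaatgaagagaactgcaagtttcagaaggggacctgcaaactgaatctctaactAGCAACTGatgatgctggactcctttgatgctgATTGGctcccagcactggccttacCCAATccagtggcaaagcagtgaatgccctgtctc
H2-Aa, chr17:34287828-34288023, minus strand: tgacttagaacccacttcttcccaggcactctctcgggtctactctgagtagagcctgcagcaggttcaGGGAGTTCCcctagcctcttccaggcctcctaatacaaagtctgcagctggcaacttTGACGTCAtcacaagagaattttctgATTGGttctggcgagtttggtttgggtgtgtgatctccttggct
H2-K1, chr17:34000334-34000533, minus strand: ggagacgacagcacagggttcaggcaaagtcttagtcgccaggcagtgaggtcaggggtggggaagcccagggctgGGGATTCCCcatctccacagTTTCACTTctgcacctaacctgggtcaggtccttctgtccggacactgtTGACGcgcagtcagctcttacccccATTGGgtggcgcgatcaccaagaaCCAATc
B2m, chr2:122147487-122147685, plus strand: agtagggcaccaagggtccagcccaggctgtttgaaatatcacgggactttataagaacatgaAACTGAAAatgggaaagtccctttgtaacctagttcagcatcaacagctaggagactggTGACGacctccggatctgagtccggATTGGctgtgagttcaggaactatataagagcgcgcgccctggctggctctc
H2-Q4, chr17:35379417-35379616, plus strand: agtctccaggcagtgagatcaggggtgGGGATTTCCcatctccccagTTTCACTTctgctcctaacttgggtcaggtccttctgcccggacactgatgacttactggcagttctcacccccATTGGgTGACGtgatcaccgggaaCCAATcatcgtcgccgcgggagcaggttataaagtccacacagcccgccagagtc
H2-Q10, chr17:35469889-35470088, plus strand: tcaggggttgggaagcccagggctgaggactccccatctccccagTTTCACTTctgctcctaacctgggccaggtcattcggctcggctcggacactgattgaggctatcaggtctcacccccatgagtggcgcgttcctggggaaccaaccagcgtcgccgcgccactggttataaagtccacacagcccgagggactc

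The motifs searched were ATTGG (Y box), TGACG (X2 or cAMP response core), AGNAACNG (X1 core), AANNGAAA (IRF element) and GGGANTNCC (class I enhancer A), on both strands of windows from 250 bases before to 50 bases after the start. RefSeq gave such a window within 500 bases of the table's gene start for 24 of the 41 members. For H2-D1 and H2-DMb1 the RefSeq start lies farther inside the gene span of the table than for the 6 genes shown, so their matches are counted but their letters are not shown. For H2-Aa and B2m the letters stop 4 bases and 1 base before the RefSeq start, at the edge of the span. The Y box was found in 19 of these 24 windows and in 37.4% of all 32851 promoters, and it was present in 4 of 4 class II windows and 10 of 11 class I heavy chain windows. The IRF element was found in 17 members against 23.9% of all promoters, with 11 of 11 class I heavy chains and 1 of 4 class II genes. Enhancer A was found in 7 members against 3.95% of all promoters, of which 6 were among the 11 class I heavy chains. The X2 core was found in 11 members against 20.8%, and the X1 core in 5 members against 17.4%.

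All of Y box, X2 core, IRF element and enhancer A were held by 27 of all promoters (0.0822%), and 6 of the 24 member windows were of this kind: H2-K1, H2-D1, H2-Q4, H2-Q7, H2-M2 and H2-Aa. The search was planned for single motifs and not for this combination, and the 27 include these member windows, so the share is a description only. The class I heavy chains are near copies of each other, so their windows are not independent. In H2-K1, enhancer A, the IRF element, the X2 core and the Y box began at positions -124, -104, -55 and -30 from the start. In H2-Aa the X2 core matched on both strands, the matches overlapping each other, and its Y box began at position -48. The IRF element of H2-Aa began at position -213, before the letters shown. A TGACG followed 24 to 26 bases on by an ATTGG on the gene's strand was found in H2-K1, H2-D1, H2-M3, H2-Q7, B2m and H2-Aa, and in 38 of all 32851 promoters (0.116%), a spacing that was chosen after the matches had been seen. In H2-Eb1 and H2-DMb1 the X1 core stood 33 and 34 bases before the Y box. H2-Q10 held the IRF element and none of the other 4 motifs, and Psmb10 held none of the 5. A match describes letters and is not evidence of binding.

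**Figure D1:**
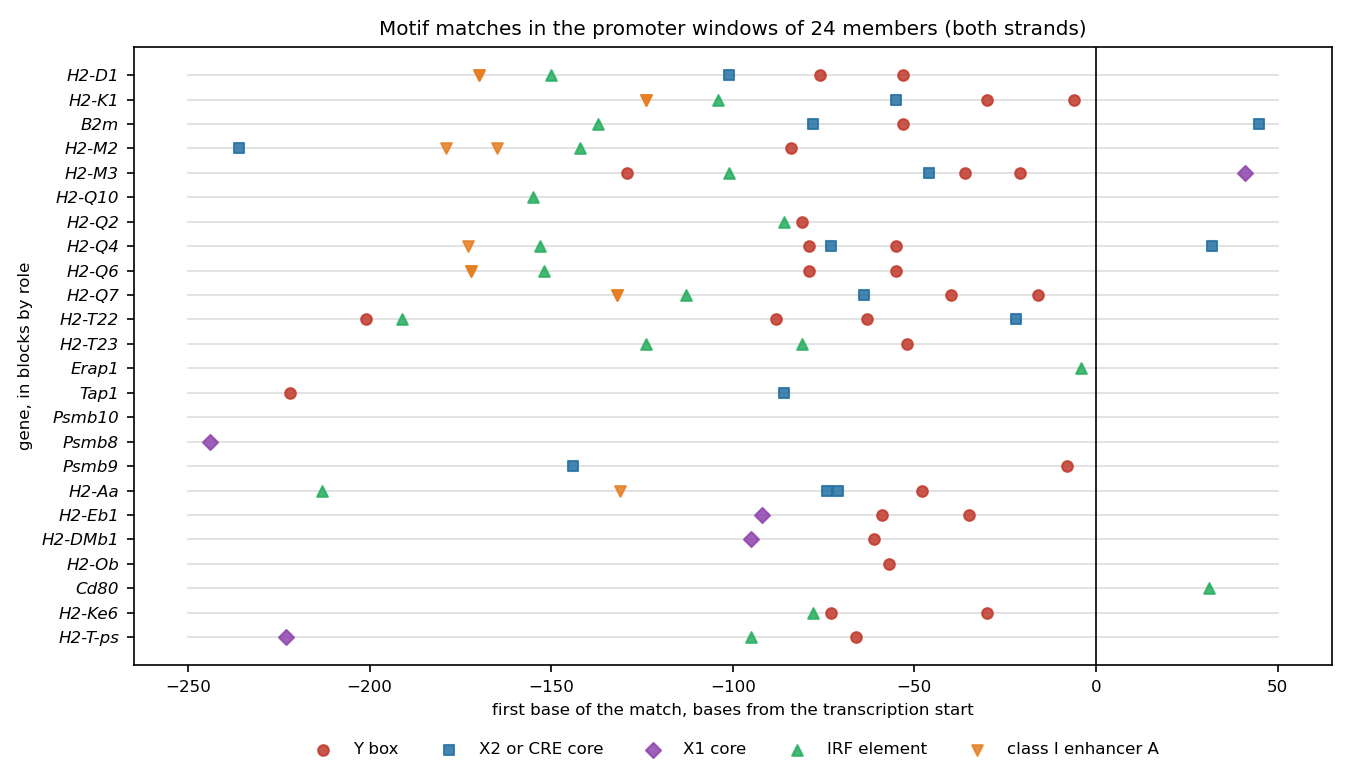
Positions of motif matches in the promoter windows of 24 members, with the distance of each match's first base from the transcription start on the horizontal axis and 1 gene per line. The 6 class I heavy chains with enhancer A carry it upstream of their IRF element and Y box matches, while H2-Eb1 and H2-DMb1 have an X1 core and a Y box, and H2-Q10 has the IRF element alone.

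Of the 41 members, 32 had a mean of at least 1 over the 3 groups, and 9 were below it (H2-Bl, H2-M2, H2-Q2, H2-T10, H2-DMb2, H2-Ob, Cd80, H2-K2 and H2-T-ps). In Scd2f/f TAL against control liver, 16 of the 32 were higher by at least 1.5-fold, where 12.8% of all 11784 genes past that minimum were, and 0 were lower, where 8.59% of all genes were. Among the 16, H2-DMa, H2-DMb1, Ciita and Cd86 had means under 1 in control liver. They could pass the minimum only by being higher in a TAL group, so their part of this count was favoured by the minimum. In CC TAL against Scd2f/f TAL, 6 of the 32 were lower, against 4.87% of all genes, and 0 were higher, against 2.35%. At 2-fold, 10 were higher and 0 lower in the former comparison, against 6.40% and 2.89% of all genes, and 4 were lower and 0 higher in the latter, against 1.54% and 0.645%. The median log2 ratio of the 32 was 0.57 in the former and -0.11 in the latter, where all genes had medians of 0.03 and 0.01. The members did not share 1 pattern: the class II genes past the limit, Ciita and H2-Q1 were among those with the widest differences in both comparisons and Cd86 in the former, and most class I and loading genes differed less.

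The gene targeted in the study had a mean of 2.46 in control liver, 6.47 in Scd2f/f TAL and 1.87 in CC TAL, a value that counts all cells of the tissue and all exons. Upper-quartile scaling set the 75th percentile of the means at 15.4 to 15.5 in the 3 groups.

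**Figure D2:**
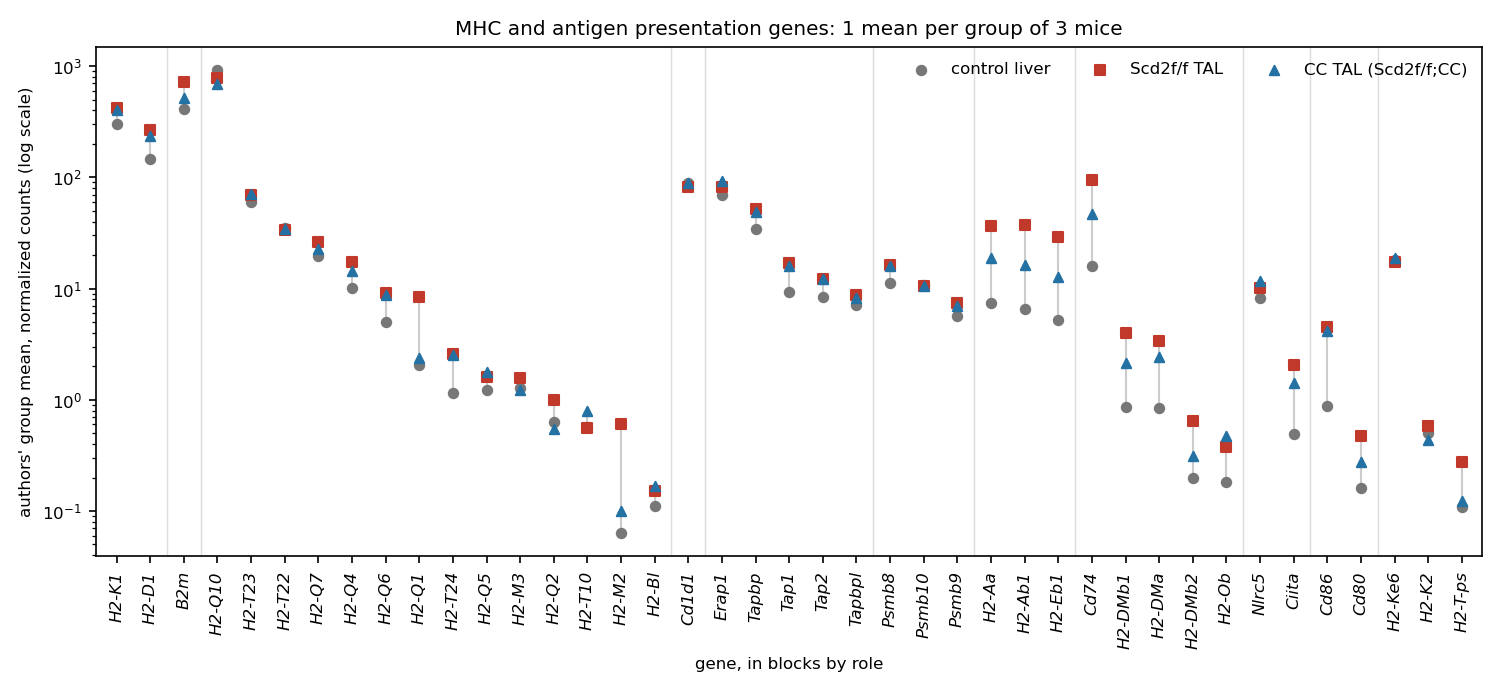
The authors' mean of normalized counts for each of the 41 members, on a log axis, in control liver (grey circles), Scd2f/f TAL (red squares) and CC TAL (blue triangles), in blocks by role and with no error bars because 1 mean per group was at hand. The class II chains and Cd74 are spread apart in the order control, CC TAL, Scd2f/f TAL, whereas H2-T22, Cd1d1, Psmb10 and H2-Ke6 have 3 means close together.

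The chains that bind class II peptides were about 5 to 6 times as high in Scd2f/f TAL as in control liver, and CC TAL lay between them. H2-Ab1, the beta chain of I-A, had an authors' mean of 6.48 normalized counts in control liver, 37.4 in Scd2f/f TAL and 16.4 in CC TAL. The means of H2-Aa, its alpha chain partner, were 7.37, 36.7 and 18.8 in the same order. H2-Eb1, the beta chain of I-E, had means of 5.23, 29.1 and 12.8. Scd2f/f TAL was thus higher than control liver by 5.77-fold for H2-Ab1, 4.98-fold for H2-Aa and 5.56-fold for H2-Eb1. CC TAL was lower than Scd2f/f TAL by 2.28-fold for H2-Ab1, 1.95-fold for H2-Aa and 2.27-fold for H2-Eb1. It remained above control liver by 2.45-fold to 2.55-fold, a comparison in which both genotype and treatment differ. On the log2 scale the ratios of these 3 genes lay within 2.32 to 2.53 and within -1.19 to -0.97, so the chains stayed near a fixed proportion to each other. C57BL/6 mice carry an inactive I-E alpha gene, so H2-Eb1 mRNA has no partner for a surface molecule in this strain.

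Cd74, the invariant chain that occupies the class II groove until peptide is loaded, was the class II gene with the highest mean, also per kilobase of exons. Its authors' means were 16.1, 94.9 and 46.8, which put Scd2f/f TAL 5.89-fold above control liver and CC TAL 2.03-fold below Scd2f/f TAL. Of all 11784 genes, 0.399% had a log2 ratio at least as high as Cd74 in Scd2f/f TAL against control liver, and 1.47% had one at least as low in CC TAL. Cd74 amounted to 0.844, 0.920 and 0.975 of the summed means of the 3 chains in control liver, Scd2f/f TAL and CC TAL. Chain and invariant chain mRNA therefore kept similar proportions in the 3 groups.

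H2-DM exchanges the invariant chain fragment for antigenic peptide. H2-DMa, its alpha chain, had means of 0.848, 3.39 and 2.43, a ratio of 4.00-fold between Scd2f/f TAL and control liver and of 1.40-fold lower in CC TAL. H2-DMb1, a beta chain, had means of 0.865, 4.01 and 2.16, or 4.64-fold higher and then 1.86-fold lower. Both passed the limit on the mean through the TAL groups, so they could pass only by differing from control liver. The near-identical beta chain gene H2-DMb2 had means of 0.199, 0.646 and 0.314, and reads may be divided between both copies in an uncertain way. H2-Ob, a chain of the H2-DM inhibitor H2-DO that is typical of B cells, had means of 0.184, 0.378 and 0.476. It was the class II gene whose mean was highest in CC TAL, at a level below the limit.

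Joined, the 8 class II genes comprised 6 with a mean of at least 1, of which 6 were higher in Scd2f/f TAL than in control liver, with a median log2 ratio of 2.40. Of these, 5 were lower in CC TAL than in Scd2f/f TAL, with a median of -0.99, H2-DMa being the exception. H2-DMa and H2-DMb1 entered the 6 only through the TAL groups, so the limit on the mean favoured their being higher than control liver. The summed means of the 8 class II genes were 37.3, 207 and 100.2 normalized counts. The class II genes thus supplied 5 of the 6 members counted as lower in CC TAL. Among the other 26 members with a mean of at least 1, 10 were higher in Scd2f/f TAL and 1 was lower in CC TAL, with medians of 0.46 and -0.08, and these counts are 38.5% and 3.85%, against 12.8% and 4.87% of all genes.

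The transactivators of the classes differed from each other. Ciita, which class II transcription requires, had authors' means of 0.494, 2.07 and 1.42. Its mean was 4.19-fold higher in Scd2f/f TAL than in control liver and 1.46-fold lower in CC TAL than in Scd2f/f TAL, just short of the limit. Like H2-DM, it passed the limit on the mean through the TAL groups. Nlrc5, the transactivator of class I genes, had means of 8.28, 10.1 and 11.6, which were 1.22-fold higher and then 1.15-fold higher.

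The classical class I genes differed less between groups than the class II chains did. H2-K1 had authors' means of 299 in control liver, 420 in Scd2f/f TAL and 407 in CC TAL, a difference of 1.40-fold and then a ratio of 0.969. H2-D1 had means of 147, 266 and 234, which were 1.81-fold higher in Scd2f/f TAL than in control liver and at a ratio of 0.880 in CC TAL. B2m, the light chain, had means of 411, 715 and 515, 1.74-fold higher and then 1.39-fold lower. The mean of B2m in CC TAL therefore lay closer to control liver than to Scd2f/f TAL, while those of both heavy chains lay closer to Scd2f/f TAL. B2m amounted to 0.922, 1.04 and 0.803 of the summed means of H2-K1 and H2-D1.

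The non-classical class I genes of the Q, T and M regions were diverse. H2-Q10, which encodes a class I molecule that hepatocytes secrete, had means of 919, 783 and 688 in control liver, Scd2f/f TAL and CC TAL. It was the member with the lowest ratio in Scd2f/f TAL against control liver, at 0.852, and its promoter was the only 1 of 11 class I heavy chain windows with no Y box. H2-Q4 had means of 10.2, 17.3 and 14.4, or 1.70-fold higher in Scd2f/f TAL, and H2-Q6 had means of 5.0, 9.12 and 8.69, or 1.82-fold higher. H2-Q7, a source of Qa-2, was at 19.5, 26.1 and 22.9.

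H2-Q1 had a mean in Scd2f/f TAL that stood apart from both other groups. Its authors' means were 2.07 in control liver, 8.32 in Scd2f/f TAL and 2.35 in CC TAL. It was 4.02-fold higher in Scd2f/f TAL than in control liver and 3.54-fold lower in CC TAL, the largest such ratio among the 32 members and the 1 gene outside class II that was counted as lower there. H2-M2, below the limit on the mean, had the same order, with means of 0.0630, 0.608 and 0.0995. Whether 1 mouse set the Scd2f/f TAL mean of these genes cannot be read from group means, and the assignment of reads among near-identical Q, T and M genes is uncertain.

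Members of the T and M regions otherwise differed little, with H2-T24 as an exception. H2-T24 had means of 1.16, 2.59 and 2.55, 2.23-fold higher in Scd2f/f TAL than in control liver and at a ratio of 0.985 in CC TAL. H2-T23, which encodes the Qa-1 ligand of NK cell receptors, had means of 60.1, 69.7 and 70.9. H2-T22, a ligand of some gamma-delta T cell receptors, had 35.1, 33.4 and 34.6, and H2-M3, which presents formylated peptides, had 1.27, 1.58 and 1.23. H2-Q5, annotated as a polymorphic pseudogene, had 1.22, 1.6 and 1.78. The means of H2-Q2, H2-T10, H2-Bl and the pseudogenes H2-K2 and H2-T-ps lay between 0.109 and 0.997 in all groups. Cd1d1, the class I-like molecule that presents lipids to NKT cells, was at 89.1, 82.6 and 88.4. H2-Ke6 matches the H2 name by its place in the complex but encodes a hydroxysteroid dehydrogenase, and it was at 17.9, 17.4 and 18.8. Of the 13 class I heavy chain and B2m genes past the limit on the mean, 6 were higher in Scd2f/f TAL than in control liver and 1 was lower in CC TAL, with medians of 0.49 and -0.18. These counts are 46.2% and 7.69% of the 13, and the latter share is near the 4.87% of all genes.

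Levels can be set side by side between genes only per length. Per kilobase of annotated exons, the authors' means of B2m were 478 in control liver, 831 in Scd2f/f TAL and 599 in CC TAL. H2-Q10 had 211, 180 and 158 per kilobase, and H2-K1 had 102, 143 and 139. Cd74 had 9.59, 56.5 and 27.9, and H2-Ab1 had 2.52, 14.6 and 6.39. The order B2m, H2-Q10, H2-K1, Cd74, H2-Ab1 was the same in the 3 groups on this scale. The class II chains together amounted to 4.28% of H2-K1 and H2-D1 together in control liver, 15.0% in Scd2f/f TAL and 7.49% in CC TAL, in normalized counts not divided by length.

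Of the 8 genes that supply peptides to class I, 2 (25%) were higher in Scd2f/f TAL than in control liver, against 12.8% of all genes. All 8 differed by under 1.5-fold between the TAL groups, where only 4.87% of all genes were lower and 2.35% higher. Tap1, a chain of the peptide pump, had authors' means of 9.36, 17.1 and 15.8, 1.83-fold higher in Scd2f/f TAL than in control liver. Tapbp, or tapasin, which bridges class I and the pump, had means of 34.2, 52.2 and 49.0, 1.53-fold higher. Tap2, the other chain, had 8.33, 12.1 and 12.3, and Psmb8, an inducible proteasome subunit, had 11.2, 16.2 and 15.8, both 1.45-fold higher and under the limit. Psmb9 had 5.69, 7.43 and 6.92, and its gene overlaps Tap1 head to head by 212 bases, within which reads could not be assigned if strand was not used. Psmb10 was level at 10.8, 10.6 and 10.6. Tapbpl had 7.07, 8.74 and 8.22. Erap1, the trimming peptidase, was highest in CC TAL, with 69.2, 81.5 and 92.7.

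The immunoproteasome subunits replace constitutive ones, so each was set against the subunit it replaces. Psmb8 stood at 0.265 of Psmb5 in control liver, 0.491 in Scd2f/f TAL and 0.449 in CC TAL. Psmb9 stood at 0.106, 0.146 and 0.141 of Psmb6. Psmb10 stood at 0.277, 0.276 and 0.288 of Psmb7. Psmb5 itself had means of 42.3, 33.0 and 35.2, so both terms of the first ratio differed.

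Cd86, a co-stimulatory ligand of CD28 on antigen-presenting cells, had authors' means of 0.879, 4.51 and 4.13. Scd2f/f TAL was 5.13-fold above control liver, through which the gene passed the limit on the mean, close to the class II genes, but CC TAL was only 1.09-fold below Scd2f/f TAL. Set against the summed class II chains, Cd86 was at 0.0461 in control liver, 0.0437 in Scd2f/f TAL and 0.0860 in CC TAL. Its relative Cd80 was at 0.161, 0.476 and 0.277, below the limit on the mean.

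**Figure D3:**
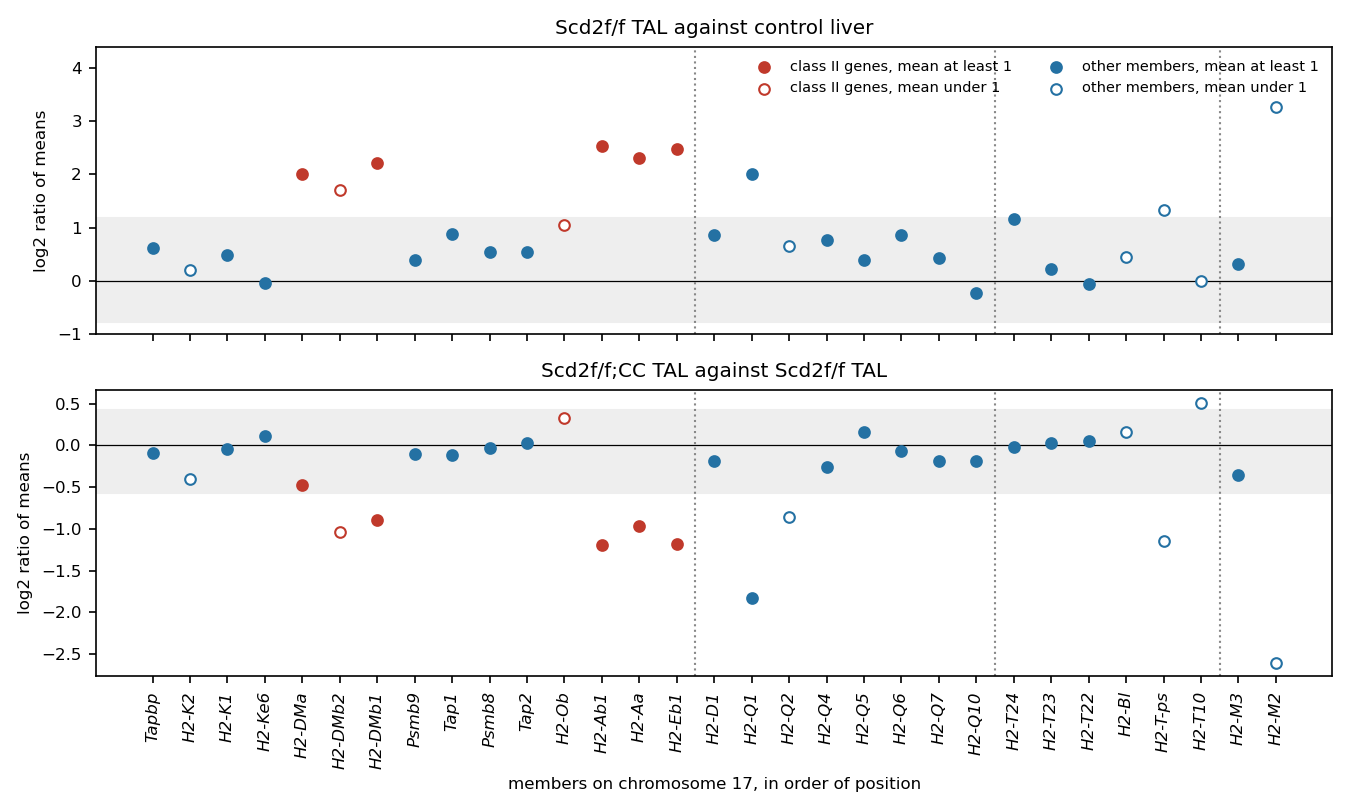
Log2 ratios of the authors' means for the 31 members on chromosome 17, in order of position, for Scd2f/f TAL against control liver (top) and CC TAL against Scd2f/f TAL (bottom), with class II genes in red, a grey band from the 5th to the 95th percentile of all genes past the limit on the mean, and dotted lines at gaps over 400 kb. H2-DMb1, H2-Ab1, H2-Aa and H2-Eb1 leave the band in both panels, H2-DMa leaves it in the top panel only, and Psmb9, Tap1, Psmb8 and Tap2, which lie among them, stay inside it.

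Neighbours in the complex differed by role. On chromosome 17, in the coordinates of the table, which match GRCm38, 31 of the 41 members lie between chr17:33915899 and chr17:37483552. The stretch from H2-DMa to H2-Eb1 (chr17:34135182-34316199, 181 kb) held 11 members. Inside it, Psmb9, Tap1, Psmb8 and Tap2 occupy 34.3 kb (chr17:34181988-34216321) between H2-DMb1 and H2-Ob. These 4 class I loading genes had log2 ratios of 0.38 to 0.87 in Scd2f/f TAL against control liver and of -0.11 to 0.02 in CC TAL against Scd2f/f TAL. The class II genes with a mean of at least 1 on either side of them had 2.00 to 2.53 and -1.19 to -0.48. For all genes past the limit, the 5th and 95th percentiles were -0.79 and 1.18 in the former comparison and -0.58 and 0.42 in the latter.

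Other genes of the pathway were taken from lists by role. Of 9 constitutive proteasome, proteasome activator and endoplasmic reticulum loading genes, such as Psmb5, Psme1, Calr and Canx, 0 were past 1.5-fold in either comparison, with median log2 ratios of -0.08 and -0.06. Of 8 regulators of MHC transcription with a mean of at least 1, 3 were higher in Scd2f/f TAL than in control liver (37.5%, against 12.8% of all genes). In CC TAL against Scd2f/f TAL, 1 of the 8 was lower (12.5%, against 4.87%). Their median log2 ratios were 0.19 and -0.12, so the list did not differ as a group. Irf1, an interferon-induced factor, had authors' means of 9.07, 20.3 and 15.3, higher by 2.24-fold in Scd2f/f TAL than in control liver. Irf8, a factor of dendritic cells and macrophages, had 2.17, 7.17 and 4.44, 3.30-fold higher in Scd2f/f TAL than in control liver and 1.61-fold lower in CC TAL than in Scd2f/f TAL. The RFX subunits that bind the X box differed by under 1.5-fold in both comparisons, as with Rfx5 at 3.71, 3.74 and 4.30.

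Of the genes of class II processing and of the co-receptors of antigen-presenting cells, 4 had a mean of at least 1. Of these, 4 were higher in Scd2f/f TAL than in control liver, against 12.8% of all genes, and 1 was lower in CC TAL, against 4.87%. Ctss, the protease cathepsin S that degrades the invariant chain, had authors' means of 9.84, 55.1 and 30.5, which are 5.60-fold higher and then 1.81-fold lower, near the ratios of Cd74. Ifi30, a thiol reductase of the endosome, had 4.30, 10.7 and 7.23, and Lgmn, an endosomal protease, had 24.7, 67.5 and 51.0. Cd274, the inhibitory ligand PD-L1, had 0.894, 3.04 and 2.06 and passed the limit through the TAL groups, so its being higher there followed from the limit. Of 3 class I-like genes outside the complex (Mr1, Hfe and Fcgrt), 0 were past 1.5-fold in either comparison. Procr, below the limit, was at 0.252, 1.19 and 0.805.

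**Figure D4:**
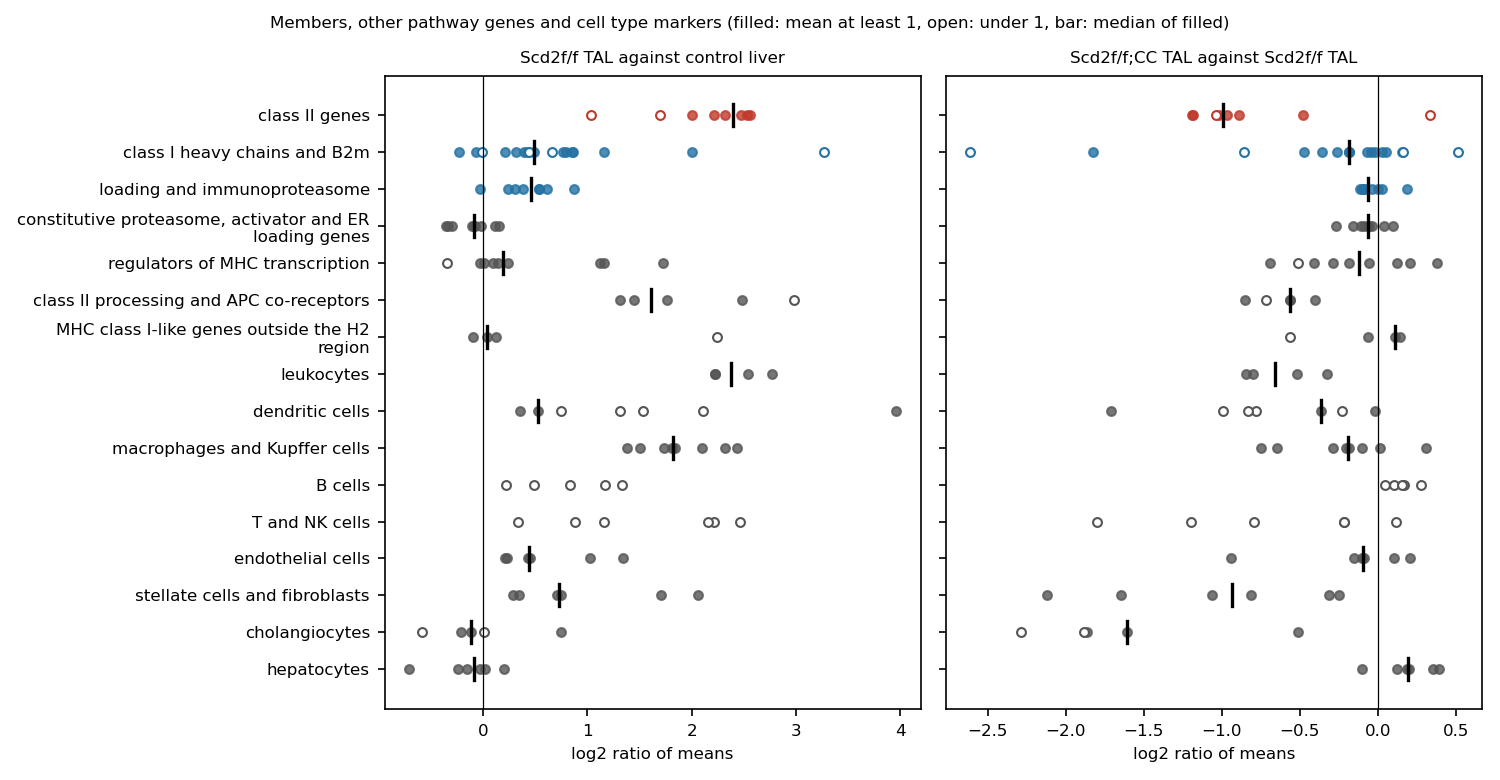
Log2 ratios of the authors' means for class II genes (red), class I and loading members (blue), other pathway genes and cell type markers (grey), with filled points for a mean of at least 1, open points for a lower mean and a bar at the median of the filled points. In the left panel the class II genes and the leukocyte markers have the highest medians, 2.40 and 2.38. The stellate cell and fibroblast median there is 0.73. In the right panel the class II median of -0.99 lies above the cholangiocyte median of -1.61. The stellate cell and fibroblast, leukocyte and macrophage medians there are -0.94, -0.66 and -0.19.

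Markers of leukocytes went in the same direction as the class II genes, with a smaller median difference between the TAL groups, and their part in the result was not tested. For this and the other marker lists, the shares of all genes past the limit were 12.8% higher in Scd2f/f TAL and 4.87% lower in CC TAL. All 4 leukocyte markers were higher in Scd2f/f TAL than in control liver, with a median log2 ratio of 2.38. In CC TAL, 2 of 4 were lower than in Scd2f/f TAL, with a median of -0.66. The summed means of the 4 were 10.1, 49.6 and 34.8. The 2 counted as lower, Cd48 and Cd52, had means under 1 in control liver and passed the limit through the TAL groups, so their being higher there followed from the limit. Ptprc, or CD45, had authors' means of 5.82, 27.2 and 19.0. The class II chains together stood at 3.28 times Ptprc in control liver, 3.79 times in Scd2f/f TAL and 2.53 times in CC TAL. The ratio to Ptprc thus differed less between control liver and Scd2f/f TAL than the chains did themselves. In CC TAL this ratio was below that of both other groups, so the chains were lower there relative to Ptprc as well.

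The 8 markers of macrophages and Kupffer cells were all higher in Scd2f/f TAL than in control liver, with a median log2 ratio of 1.83, and 2 of them, Lyz2 and Cd68, were lower in CC TAL, with a median of -0.19 and summed means of 106, 403 and 331. The general macrophage marker Adgre1 had authors' means of 5.70, 19.0 and 17.7, and the Kupffer cell marker Clec4f had 27.3, 71.2 and 71.7. The class II chains stood at 3.35, 5.43 and 2.71 times Adgre1. Between the TAL groups, the class II genes had a median log2 ratio of -0.99, below that of these macrophage markers. Lyz2 and Cd68 lay nearer to it, at -0.75 and -0.65, than Adgre1 did, at -0.10. The ratio of the chains to a macrophage marker therefore depends on the marker chosen.

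Of 7 dendritic cell markers found, 3 had a mean of at least 1, and 1 of them, Itgax, was past 1.5-fold in each comparison, and the medians of the 3 were 0.52 and -0.36. Itgax, or CD11c, also carried by some macrophages, had authors' means of 0.235, 3.66 and 1.12 and passed the limit on the mean through the TAL groups, so it had to be higher in one of them. The class II chains stood at 81.2, 28.2 and 42.9 times Itgax, lowest in Scd2f/f TAL, where their ratios to Ptprc and Adgre1 were highest. The Itgax mean in control liver is low, which makes the first of these values uncertain. The other 2 past the limit were Zbtb46, at 2.62, 3.35 and 3.31, and Clec9a, at 1.03, 1.48 and 1.15. Flt3, the receptor of dendritic cell growth, had 0.231, 0.573 and 0.288, and Xcr1, a marker of cross-presenting dendritic cells, had 0.142, 0.614 and 0.357, both below the limit. The summed means of the dendritic cell list were 4.68, 10.6 and 6.86.

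None of 5 B cell markers had a mean of at least 1, and their summed means were 1.11, 2.04 and 2.23, with the highest in CC TAL, as for H2-Ob. None of 6 T and NK cell markers reached it either, with sums of 1.36, 4.16 and 2.53, and Cd8a was at 0.235, 1.05 and 0.302. Stellate cell and fibroblast markers, the cells in which Cre was driven, had 4 of 6 higher in Scd2f/f TAL, against 12.8% of all genes. In CC TAL, 4 of 6 were lower, against 4.87% of all genes. Their medians were 0.73 and -0.94 and their sums were 176, 277 and 171. Of 6 endothelial markers, 2 were higher in Scd2f/f TAL and 1 was lower in CC TAL, and their sums were 105, 142 and 143. Of the cholangiocyte markers, 3 had a mean of at least 1, and 2 of these were lower in CC TAL, with a median of -1.61 and list sums of 58.7, 53.1 and 19.1. Hepatocyte markers marked the tissue as liver, with Alb at 21300, 20900 and 22700, and had 0 higher and 1 lower in Scd2f/f TAL and 0 past 1.5-fold in CC TAL. The part of each of these lists in the means of the MHC genes was not tested.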

How the data were processed

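The authors prepared polyadenylated RNA from liver tissue, sequenced it on a NextSeq 500, assigned reads to Gencode M3 genes by expectation/maximization in Partek and scaled counts to the upper quartile. The submitters' processing notes name STAR 2.6.1, Partek 6 and mm10. Whether strand was used in counting is not given in the sources used here. The deposited signal is the authors' least-squares mean of normalized counts per group, with 3 significant digits. Columns of the authors' comparisons (p-values, FDR, ratios and fold changes) were not used, and depth is unknown.

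Ratios of means were computed in Python 3.11.15 with NumPy 2.4.6 and pandas 2.3.3, with no pseudocount, for genes with a mean of at least 1 over the 3 groups, and plotted with Matplotlib 3.10.9. Every gene that the name rule found was reported. In the list of regulators, 1 gene is not reported here. The counts past the fold limit and the motif search were first tested on data with planted changes and planted motifs, and the other steps were not. The members, pathway lists and marker lists were chosen with earlier results of these data known. Coordinates are those of the table, of whose symbols 16171 are in GENCODE M21 (GRCm38), where 99.98% of them overlap their namesake. Exon lengths are from GENCODE M21. RefSeq promoter windows started within 500 bases of the gene for 24 members and farther away for 3 (H2-DMa, H2-DMb2 and Tapbp), and 14 had no entry. Alternatives were a fold limit of 2, no minimum mean or one of 5, a pseudocount of 1, centring on the median of all genes, and leaving out pseudogenes and H2-Ke6.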

Additional observations from a re-analysis of the deposited data

How the results depend on the processing

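Of 34 alternative values of the counts and medians, 30 stayed within 1.5 times the reported count or within 0.1 of the reported log2 median, and no median changed sign. Part of this was fixed in advance. The counts of 0 could not rise with a higher fold limit, a higher minimum mean, a pseudocount or genes left out. Centring could move the 2 member medians only by the medians of all genes, 0.03 and 0.01. The number of members higher in Scd2f/f TAL than in control liver went from 16 of 32 to 10 at a fold limit of 2, where 6.40% of all genes were higher. It went to 10 of 24 with a mean of at least 5, where 8.49% of all genes were higher. The median log2 ratio of the members in this comparison went from 0.57 to 0.69 without pseudogenes and H2-Ke6. The number lower in CC TAL went from 6 of 32 to 11 of 41 with no minimum mean, where 9.80% of all genes were lower. With 1 added to each mean, the log2 ratio in Scd2f/f TAL against control liver went to 1.04 for Ciita, 1.25 for H2-DMa, 1.43 for H2-DMb1 and 1.55 for Cd86, since their means are low. Without values of single mice, no replicate was left out and no test over mice was run here, and the weight of a single mouse in a group mean is unknown. No paired analysis was possible because the table holds 1 mean per group.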
